A study of Bos taurus with 252 samples.

Results

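The untreated steers of a feedlot antimicrobial trial were followed by whole-blood RNA-seq from day 0, the day after arrival, to day 56. Their blood on days 14, 21 and 56 was compared with their own blood on day 0. They were chosen as every library labelled negative control (NC), that is 36 of 252 libraries, from 6 of 42 steers and 1 of 7 groups. The trial compared 6 antimicrobials given on day 0 with no antimicrobial, and no treated steer enters the values given here. Each NC steer (NC1, NC5, NC7, NC12, NC13 and NC15) gave 1 library on day 0 and 1 more on each of days 3, 7, 14, 21 and 56. The steers were crossbred animals bought from a grow yard, their age is not given in the sources used here, and at the start of backgrounding, before the trial, all had received tildipirosin, an implant of trenbolone acetate and estradiol, antiparasitics and vaccines against respiratory and clostridial disease. The day 0 blood was drawn before any treatment of the trial, and NC steers received none afterwards. All NC steers stood in 1 pen on the same starter ration, so the day cannot be told apart from time since transport and arrival, diet, season, age or anything else that acted on that pen over time. "Late" below means the mean of days 14, 21 and 56 in a steer, and days 3 and 7 are given as context.

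Whole blood RNA is a mixture. Most of it comes from neutrophils, monocytes, eosinophils, basophils, lymphocytes and platelets, and a variable share comes from young red cells, which still carry hemoglobin mRNA when they leave the bone marrow. Neutrophils and monocytes respond within hours to stress hormones and to microbial products, interferons switch on a shared set of antiviral genes in nearly all of these cells, and glucocorticoids move leukocytes between blood, marrow and tissue. Cattle have large numbers of gamma delta T cells in blood, and their neutrophils hold cathelicidins and beta-defensins.

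The libraries held 32.3 to 63.01 M counts each (median 43.6 M, M being the prefix mega), and the late mean of a steer's total differed from day 0 by -0.839 M counts on average (SD 6.89, n = 6, two-sided exact sign-flip permutation p = 0.8125). The defining markers of red cells, neutrophils, monocytes, eosinophils, basophils, T cells, B cells, NK cells and platelets were detected, whereas CSF3R, EPX, PRG2 and TRDC were not analysed here and WC1, CD163L1 and HDC were below the filter on low counts. Hemoglobin genes took a median of 0.934% of counts at the start, 1.33% and 1.79% on days 3 and 7, 4.42% and 6.22% on days 14 and 21, and 1.24% at the last sampling. Steer NC5 stood apart, with 21.5%, 20.4% and 20.4% on days 7, 14 and 21. The TMM factor, which scales each library to the others, was lower in the late mean than on day 0 in 6 of 6 steers, by 0.0721 on average (SD 0.0448, exact sign-flip p = 0.03125, the smallest p that 6 steers allow). Every library was closest in expression to another library of its own steer (36 of 36). By gene, the median part of the variance between steers was 35.8% and that between days 17.1%, and on the first principal component, which carried 14.6% of the variance, the steer accounted for 78.1% and the day for 14.2%.

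**Figure D1:**
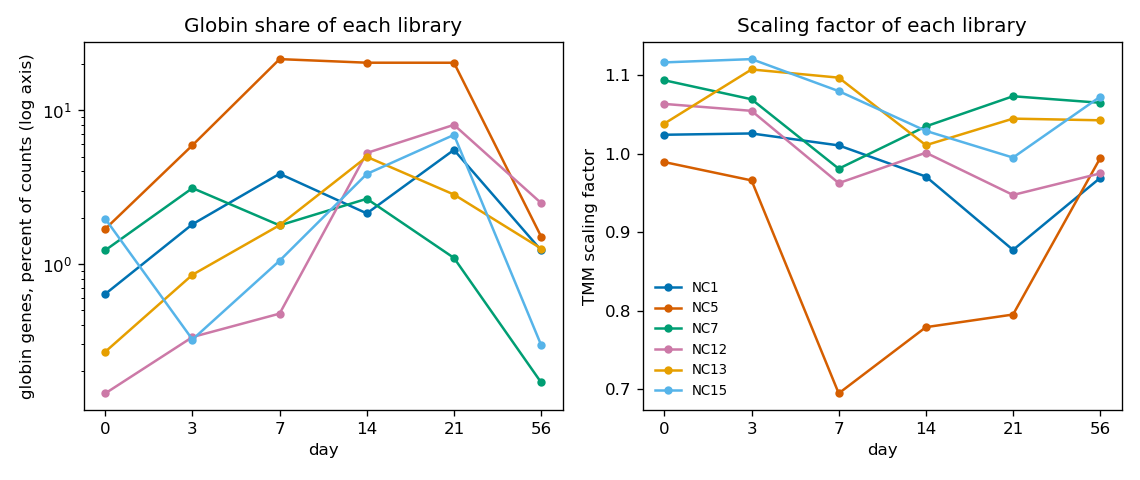
Hemoglobin share of all counts in percent (one panel) and TMM scaling factor (the other panel) by day of the trial, with 1 line per steer. NC5 lies above 20% on days 7, 14 and 21, and the median of the 6 steers is highest on day 21 (6.22%) and back at 1.24% on day 56.

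In all comparisons n = 6 steers. Levels below are counts relative to library size (CPM) after scaling by the TMM factor. Fold changes are log2 values of late or of one day against day 0 within steers. The value after ± is an approximate standard error (SE). It is the size of the log2 value divided by the square root of the F statistic of edgeR's quasi-likelihood test. FDR is the Benjamini-Hochberg adjusted p of that test over the 16833 genes tested. In the late mean 6432 genes passed an FDR of 0.05, which is 38.2% of those tested. Of these, 3106 rose (18.5%) and 3326 fell (19.8%). Most differences were small. The median size over the genes that passed was 0.41 on the log2 scale, 458 of them changed at least 2-fold (168 higher and 290 lower), and the median over all genes tested was -0.005. In 5030 of the 6432 genes the change had the same direction in 6 of 6 steers. For 1150 genes (6.83% of those tested) the 6 late means and the 6 day 0 values did not overlap, and for 248 genes none of the 18 late libraries overlapped the 6 day 0 libraries. Without the pairing by steer 3518 genes passed, since differences between steers then entered the error. Leaving out 1 steer at a time gave 4843 to 5961 genes, with the lowest count without NC13.

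Single days gave few genes early and many later. Against day 0, 5 genes passed on day 3 (0.0297%), where 1283 had an unadjusted p under 0.05, and 527 on day 7 (3.13%). The day 7 count changed with the steer left out. It was 45 genes without NC5, 97 without NC13, 124 without NC7, 231 without NC15, 303 without NC12 and 784 without NC1. From day 14 on the counts were of one order, 5077 genes on day 14 (30.2%, 2478 higher and 2599 lower), 4069 on day 21 (24.2%, 2063 higher and 2006 lower) and 5073 on day 56 (30.1%, 2568 higher and 2505 lower). Fitted without the pairing, the counts were 1 on day 7 and 1958, 1133 and 2004 on the late days. With only the 2 days of each comparison in the fit, day 7 gave 0 genes, day 21 gave 832 and day 56 gave 3007. Day 21 gave 2435 genes without NC1 and 2460 without NC13, and day 56 gave 2591 without NC13. All of these comparisons use the same 6 day 0 libraries.

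**Figure D2:**
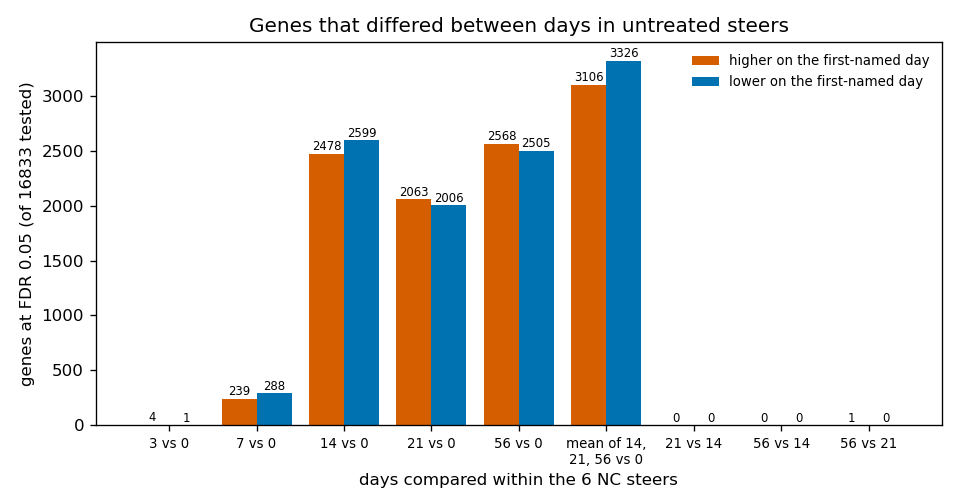
Number of genes past an FDR of 0.05 against day 0 on each day and in the late mean, with genes higher than day 0 and genes lower than day 0 as separate bars. The bars are near 0 on day 3, reach 527 genes in all on day 7 and lie between 4069 and 5077 on days 14, 21 and 56.

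Between the late days the same test called 1 gene in all. Against day 14, no gene passed on day 21 or on day 56 (0 genes in edgeR's quasi-likelihood test, against 761 and 1047 whose unadjusted p was under 0.05). DESeq2's Wald test gave 3 and 29 genes for those comparisons, and edgeR's likelihood ratio test and limma voom gave 16 and 2 for day 56. Day 56 against day 21 gave 1 gene, KCTD15, a channel tetramerisation domain protein, which is named here because its value was seen. DESeq2's Wald test gave 39 genes there, the likelihood ratio test 12 and limma voom 4. It had medians of 1.92, 2.96 and 6.81 CPM on days 0, 21 and 56, and its log2 fold change between the last 2 was 1.13 ± 0.17 (FDR 0.00987). That call was lost without NC1 (1.16), NC5 (1.13), NC7 (1.14) or NC13 (1.07), each time at nearly the same fold change, and when the 3 libraries of NC5 rich in hemoglobin were left out (1.12).

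The genes with the smallest p among those that fell were VCAN, PLEKHM3, BACH1, NEK3 and BAZ2B. VCAN, which codes for the matrix proteoglycan versican and is abundant in monocytes, lay at 68.05 to 121 CPM (median 98.1) on day 0 and 26.1 to 47.5 CPM (median 34.4) in the late means. All 18 late libraries were below all 6 day 0 libraries, and the fall was 2.795-fold (log2 fold change -1.48 ± 0.13, FDR 4.65e-08). BACH1, a repressor of transcription that is released from DNA by heme, lay at 69.99 to 93.6 CPM (median 82.8) on day 0 and 27.02 to 42.8 CPM (median 39.5) in the late means. PLEKHM3, a protein with pleckstrin homology domains, lay at 42.1 to 64.04 CPM (median 47.4) on day 0 and 26.5 to 34.8 CPM (median 27.6) in the late means. Both also had every late library below every day 0 library, with log2 fold changes of -1.17 ± 0.12, FDR 5.88e-07 for BACH1 and -0.79 ± 0.08, FDR 3.11e-07 for PLEKHM3. BACH1 shares its position with LOC112448281, and counts of overlapping genes may be split. The kinase gene NEK3 (-0.67 ± 0.07, FDR 6.52e-07) and the bromodomain gene BAZ2B (-1.05 ± 0.11, FDR 6.52e-07) fell too, but their day 0 and late ranges overlapped.

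Among genes that rose the smallest p belonged to RHEX, TREM2, SSPO, GGT7 and CD7. RHEX, a regulator of red cell precursors that acts with the erythropoietin receptor, lay at 37.7 to 65.3 CPM (median 53.8) on day 0 and 74.2 to 134 CPM (median 98.7) in the late means. Its ranges did not touch, and it rose 1.87-fold (log2 fold change 0.90 ± 0.08, FDR 4.65e-08). TREM2, a lipid-sensing receptor of macrophages, lay between 6.34 and 23.01 CPM on day 0, with a median of 11.7, and between 18.8 and 57.2 CPM in the late means, with a median of 30.7. The ranges overlapped although every steer rose, and TREM2 was also among the 10 largest rises (log2 fold change 1.41 ± 0.15, FDR 6.52e-07). CD7, a surface protein of T and NK cells, lay at 23.3 to 37.1 CPM (median 26.1) on day 0 and 31.3 to 64.7 CPM (median 52.4) in the late means, with a rise of 0.79 ± 0.09, FDR 1.54e-06. GGT7, of the gamma-glutamyltransferase family, rose (0.68 ± 0.08, FDR 1.54e-06) with ranges apart, and SSPO, which codes for the secreted glycoprotein SCO-spondin and overlaps RARRES2, rose (0.82 ± 0.09, FDR 1.54e-06) with ranges that overlapped.

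**Figure D3:**
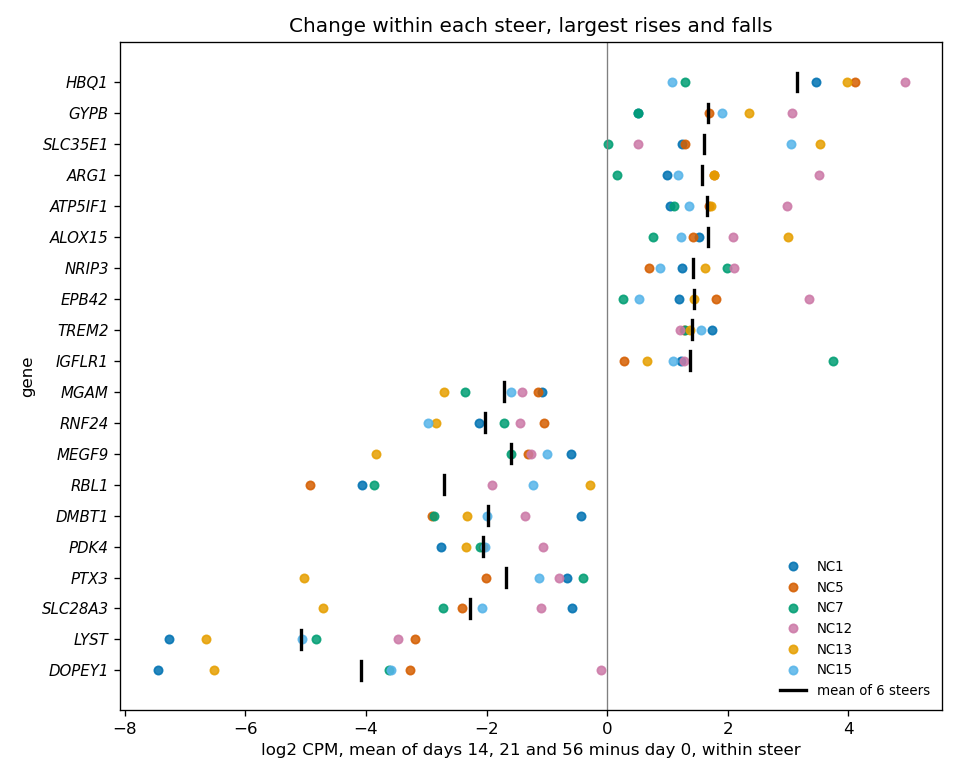
Change from day 0 to the mean of days 14, 21 and 56 on the log2 CPM scale for the 10 genes of largest rise and the 10 of largest fall, with 1 point per steer and a bar at the mean of the 6 steers. All points of a gene lie on one side of 0, as the choice of genes required, and single steers stand far from the other 5 for MEGF9, PTX3, IGFLR1 and ATP5IF1.

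The 10 largest rises among genes with a mean of at least 5 CPM and the same direction in 6 of 6 steers held 5 genes of red cells or granulocytes. HBQ1 (theta globin), GYPB (a glycophorin) and EPB42 (a protein of the red cell membrane) rose, with 3.26 ± 1.004, FDR 0.0116 for HBQ1, 1.78 ± 0.43, FDR 0.00185 for GYPB and 1.42 ± 0.42, FDR 0.00865 for EPB42. HBQ1 and EPB42 had ranges that did not overlap, but without NC13 the call of HBQ1 was lost at 3.08. ARG1, the arginase of granulocytes, lay at 2.88 to 22.8 CPM (median 8.66) on day 0 and 18.3 to 46.4 CPM (median 38.04) in the late means and rose (1.72 ± 0.53, FDR 0.0115). ALOX15, the lipoxygenase of eosinophils, lay at 3.03 to 45.6 CPM (median 14.7) on day 0 and 25.4 to 134 CPM (median 45.6) in the late means and rose (1.68 ± 0.29, FDR 7.56e-05). The ranges of both overlapped. HBQ1, ARG1, ALOX15 and NRIP3 each overlap an uncharacterized gene on the genome, so their counts may be shared with it. ATP5IF1, an inhibitor of the mitochondrial ATP synthase, rose (1.699 ± 0.35, FDR 0.000520) with ranges apart, and NRIP3 rose too (1.43 ± 0.27, FDR 0.000225). IGFLR1, a receptor of T cells, rose (1.35 ± 0.46, FDR 0.0213) and lost its call without NC7 (1.03). SLC35E1, a solute carrier, rose (1.78 ± 0.67, FDR 0.0362) and lost its call without NC1 (1.90), NC5 (1.68), NC13 (1.45) or NC15 (1.60).

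The 10 largest falls included PDK4 and SLC28A3, which had day 0 and late ranges apart. PDK4, the kinase that holds back pyruvate dehydrogenase and so spares glucose, lay at 15.5 to 43.4 CPM (median 24.3) on day 0 and 4.28 to 9.75 CPM (median 6.31) in the late means. No late mean reached the day 0 range, and the fall was 4.12-fold (log2 fold change -2.04 ± 0.24, FDR 1.86e-06). By day its log2 fold change was -1.202 ± 0.33 and -1.53 ± 0.33 on days 3 and 7, and -2.43 ± 0.34, -1.37 ± 0.33 and -2.33 ± 0.34 on the late days in order. SLC28A3, a nucleoside transporter, lay at 39.6 to 255 CPM (median 71.5) on day 0 and 10.4 to 34.7 CPM (median 16.4) in the late means (log2 fold change -2.45 ± 0.39, FDR 3.52e-05). MGAM, the maltase-glucoamylase carried by neutrophils, fell (-1.73 ± 0.29, FDR 7.16e-05), as did DMBT1, a secreted scavenger receptor that overlaps other genes, (-1.97 ± 0.30, FDR 2.22e-05), MEGF9 (-1.79 ± 0.33, FDR 0.000184) and the ring finger gene RNF24 (-1.75 ± 0.39, FDR 0.000908). The ranges of these 4 genes overlapped. PTX3, a pentraxin stored in neutrophil granules, overlaps VEPH1 and fell (-2.37 ± 0.83, FDR 0.0258), but that call was lost without NC13 (-1.03) and without NC5 (-2.44). On day 56 alone the largest falls were of PDK4, NLRC3 (-1.997 ± 0.62), a regulator of innate signaling, and KLF11 (-1.76 ± 0.29), a transcription factor of the TGF-beta pathway. NLRC3 lost its late call without NC7 (-0.79), NC12 (-0.61) or NC13 (-1.41). KLF11 kept ranges apart in the late mean (-1.49 ± 0.21, FDR 1.11e-05).

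The other 3 of the largest falls, DOPEY1, LYST and RBL1, had libraries at or near 0. DOPEY1 was at a count of 0 in 8 libraries, RBL1 in 2 and LYST in 1, all of them on day 7 or later. DOPEY1, a protein of membrane traffic, had medians of 17.5, 18.01, 9.35, 0.232, 2.91 and 0.163 CPM from day 0 to day 56 (log2 fold change -3.73 ± 1.04, FDR 0.00601 in the late mean). LYST, the lysosomal trafficking regulator, lay at 103, 28.8, 13.4, 0.270, 10.3 and 5.46 CPM by the same order of days. Its call in the late mean (log2 fold change -2.78 ± 1.02, FDR 0.0321) was lost without NC1 (-2.56), NC7 (-2.67) or NC15 (-2.93). TAOK1, a kinase that fell most on day 14 (-4.898 ± 1.83, FDR 0.0433), was at 0 in 10 libraries, and on day 14 its median was 0 CPM against 35.97 on day 0. Of the 10985 genes with a mean of at least 5 CPM, 313 had 1 or more libraries under 5% of the gene's mean, and so had 24 of the 159 genes of that level that passed and changed at least 2-fold in the late mean. They were thus more frequent among the large changes. Of all 5160 genes of that level that passed in the late mean, 29 had such a library, a smaller share than over all genes of that level. RBL1, the retinoblastoma relative p107, fell (-1.93 ± 0.69, FDR 0.0287) but lost its call without NC5 (-1.43), NC7 (-1.73) or NC12 (-2.09). What sets these libraries apart was not tested.

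**Figure D4:**
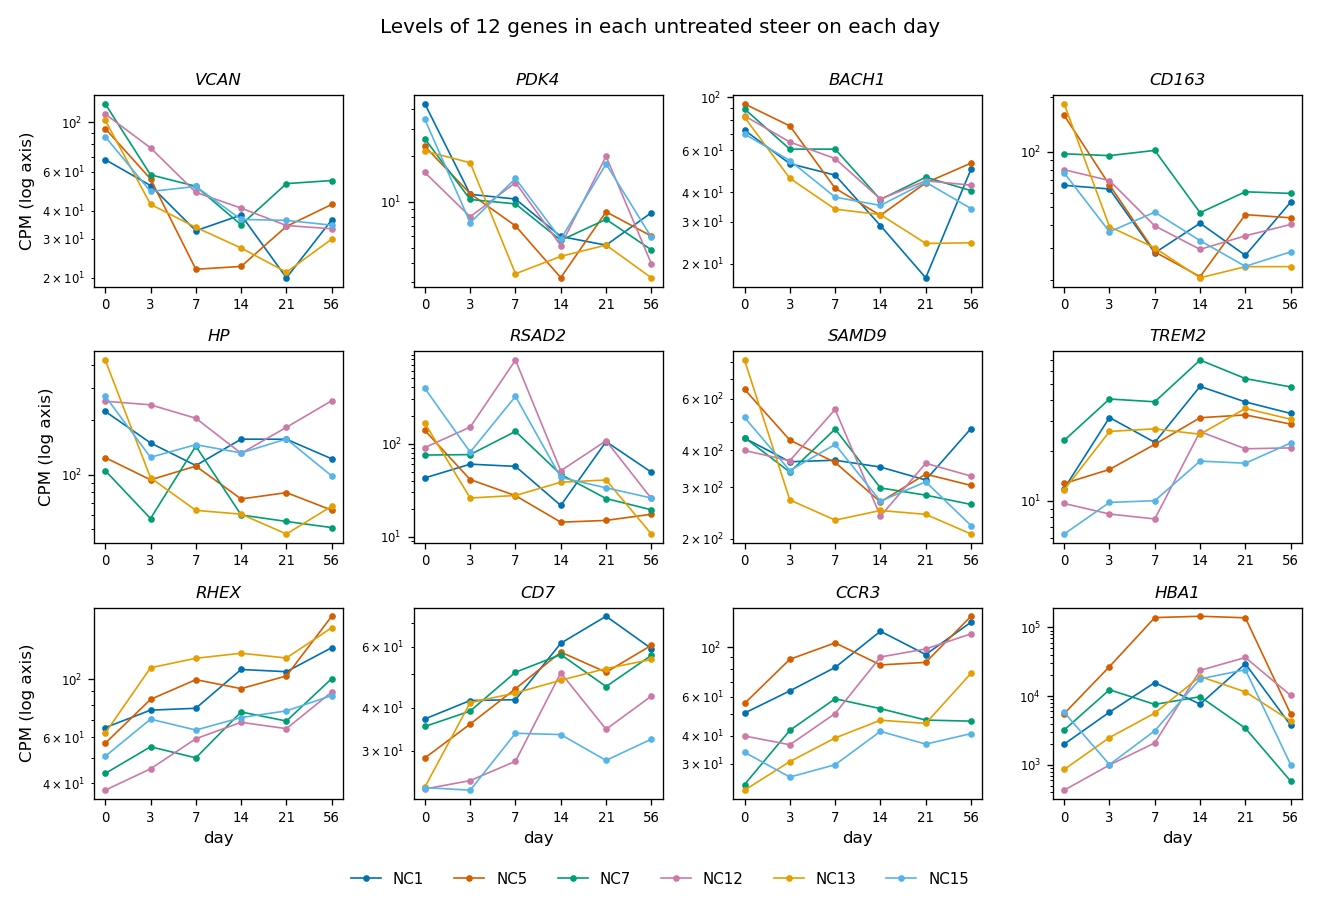
CPM on a log axis by day for 12 genes, with 1 line per steer. The lines of VCAN, BACH1 and CD163 lie lower on days 14, 21 and 56 than on day 0 in every steer, those of RHEX, CD7 and CCR3 lie higher in every steer, and RSAD2 and HP show wide differences between steers.

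Gene lists described the same change by cell type and pathway, and they were drawn up with earlier results of these data known, so their counts are descriptions. Each is read against the 18.5% of all genes that rose and the 19.8% that fell. In bulk blood a lower level can come from fewer cells of a type or from less RNA per cell, and these cannot be told apart.

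**Figure D5:**
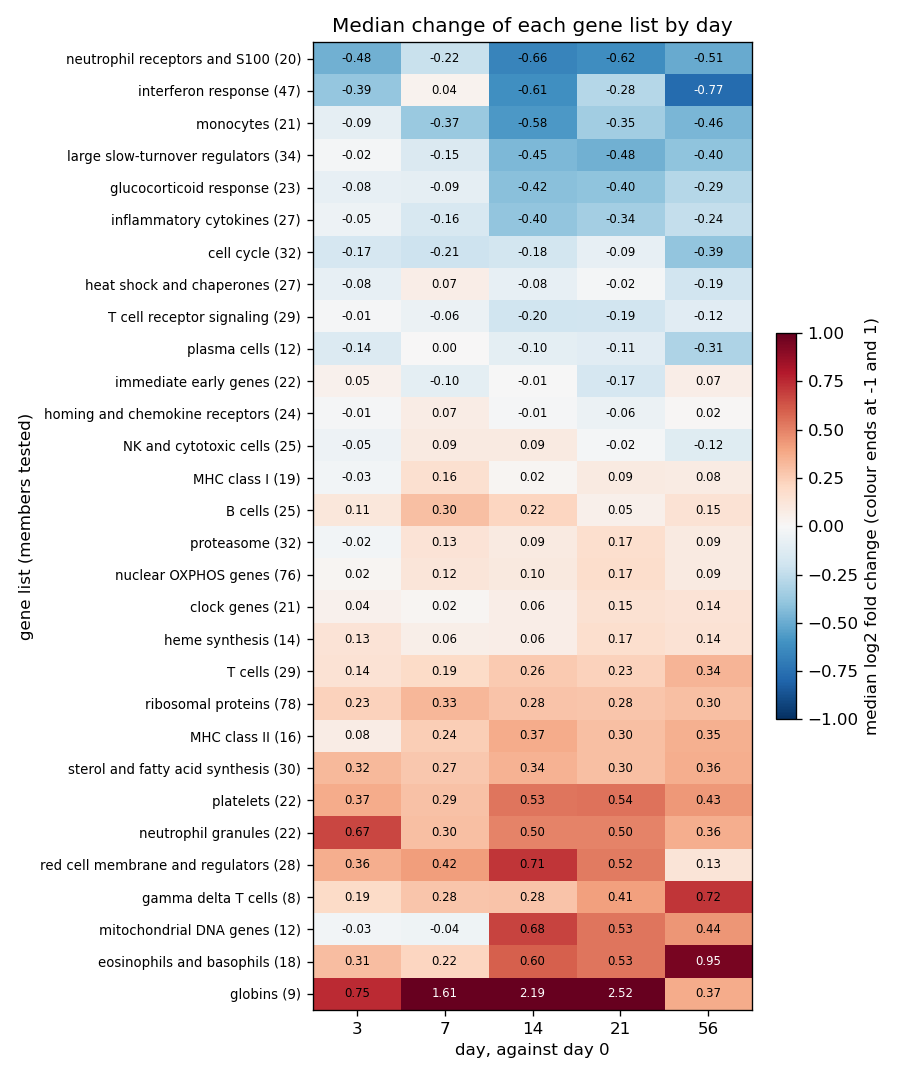
Median log2 fold change against day 0 of the tested members of the larger gene lists (rows) on each later day (columns), as colours. The late mean is given here in numbers only. In the late mean the lists of globins and of eosinophils and basophils had medians above 0 (1.66 and 0.59). Neutrophil receptors, interferon response and monocyte genes had late medians below 0 (-0.65, -0.57 and -0.49).

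About as many interferon-stimulated genes fell in the late mean as did not pass the test. Of 47 tested, 23 fell (19.8% of all genes fell) and 0 rose, with a median log2 fold change of -0.57. The median was -0.39 and 0.04 on days 3 and 7, and -0.61, -0.28 and -0.77 on the late days in order, when 17, 10 and 26 of the genes fell. CXCL10, a chemokine named after its value was seen, was the 1 member that rose on day 21 (0.95 ± 0.26, FDR 0.0110), and it did not pass in the late mean (0.40 ± 0.22). SAMD9, an antiviral protein that blocks translation, had ranges that did not overlap, at 400.02 to 813 CPM (median 481) on day 0 and 233 to 381 CPM (median 291) in the late means (log2 fold change -0.92 ± 0.15, FDR 3.77e-05). RSAD2, which codes for viperin, lay at 42.8 to 391 CPM (median 114) on day 0 and 15.6 to 61.3 CPM (median 32.5) in the late means, and its steers differed widely. On day 7 RSAD2 reached 787 CPM in NC12, above any day 0 value, and on day 56 no steer was above 49.3 CPM. RSAD2 fell (-2.18 ± 0.43, FDR 0.000329), as did MX2, a dynamin-like antiviral GTPase (-1.92 ± 0.38, FDR 0.000279), and IFIH1, the RNA sensor MDA5 (-0.95 ± 0.19, FDR 0.000290). The late ranges of MX2 and IFIH1 overlapped day 0, and MX2 on day 21 reached 1154 CPM in NC1. Without NC13, which held the highest day 0 value in 44.7% of these genes against 19.5% of all genes, 14 of the 47 fell, and without the 3 hemoglobin-rich libraries of NC5, 18 fell.

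Many genes of neutrophil receptors and S100 proteins were lower, and granule genes were mixed. Of 20 receptor and S100 genes 9 fell and 0 rose (median -0.65), and without NC13 4 fell. IL1R2, the decoy receptor of interleukin 1, lay at 8.21 to 49.9 CPM (median 11.2) on day 0 and 3.85 to 10.1 CPM (median 7.09) in the late means (log2 fold change -1.29 ± 0.28, FDR 0.000713). S100A9, a calcium-binding protein of neutrophils and monocytes, lay at 406 to 2609.8 CPM (median 828) on day 0 and 338 to 1059 CPM (median 558) in the late means (log2 fold change -0.83 ± 0.33, FDR 0.0494). In both genes the ranges overlapped and the highest day 0 value came from NC13. S100A9 was close to the threshold and lost its call in 13 of 18 alternatives, among them those without NC13 (-0.12), NC5 (-0.90), NC7 (-0.86) or NC15 (-0.90). By steer its change was above 0 in NC1 (0.18) and NC12 (0.41). TNFRSF10D, a decoy receptor of the death ligand TRAIL, fell (-0.63 ± 0.09, FDR 7.24e-06), as did the adhesion receptor ADGRG3 (-1.33 ± 0.35, FDR 0.00344), and the latter was no longer called without NC13 (-0.78). S100A8 (-0.71 ± 0.33), S100A12 (-0.65 ± 0.29) and the chemokine receptor CXCR2 (-0.72 ± 0.39) did not pass the test, but S100A12 did without NC12 (-0.84). Of 22 granule genes 5 rose and 2 fell. HP, the acute-phase protein haptoglobin, fell from a median of 239 CPM (105 to 428) to 101 (55.5 to 189.7), with -1.25 ± 0.22, FDR 0.000111, while the cathelicidin CATHL5 rose (2.66 ± 0.69, FDR 0.00322), as did the myeloperoxidase gene MPO (1.195 ± 0.32, FDR 0.00401). CATHL5 and MPO code for proteins made in neutrophil precursors, with day 0 medians of 0.0833 and 0.924 CPM here. Without NC1, 3 granule genes rose.

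Monocyte genes were lower as a group, with 12 of 21 fallen and 0 risen (median -0.49). CD163, the scavenger receptor for complexes of hemoglobin and haptoglobin, lay at 65.7 to 182 CPM (median 88.7) on day 0 and 22.7 to 55.5 CPM (median 35.8) in the late means. The ranges did not overlap, and the fall was 3.24-fold (log2 fold change -1.697 ± 0.21, FDR 2.48e-06). It was already lower on day 7 in 5 of 6 steers, at a median of 34.7 CPM. CD14, the co-receptor for lipopolysaccharide, lay at 59.1 to 89.3 CPM (median 67.1) on day 0 and 30.1 to 53.01 CPM (median 44.4) in the late means, again with ranges apart (log2 fold change -0.80 ± 0.17, FDR 0.000753). The coagulant enzyme gene FGL2 fell (-0.51 ± 0.10, FDR 0.000408), as did the high-affinity IgG receptor FCGR1A (-1.22 ± 0.36, FDR 0.00970), which was not called without NC13 (-0.83). CSF1R (-0.31 ± 0.13) and CD68 (-0.47 ± 0.50) did not pass, although CSF1R did without NC12 (-0.36). Leaving out 1 steer at a time left 10 to 13 of the 21 lower.

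In the list of inflammatory signaling 10 of 27 genes fell and 5 rose (median -0.36). Over all genes 19.8% fell and 18.5% rose, so the share that rose was near that of all genes. NFKBIZ, a co-factor of NF-kappaB, lay at 25.98 to 37.1 CPM (median 29.3) on day 0 and 14.8 to 18.7 CPM (median 18.01) in the late means and fell (-0.84 ± 0.12, FDR 7.62e-06). NLRP3, the inflammasome sensor, lay at 33.7 to 54.2 CPM (median 39.2) on day 0 and 18.4 to 33.5 CPM (median 29.1) in the late means and fell (-0.63 ± 0.11, FDR 8.99e-05). Both genes had ranges that did not overlap. IL1R1, the signaling receptor of interleukin 1, fell (-0.63 ± 0.14, FDR 0.000846) with overlap. TNF rose, from 26.3 to 33.7 CPM on day 0 to 36.3 to 43.3 in the late means with no overlap (log2 fold change 0.35 ± 0.07, FDR 0.000366). Without NC5 6 of the 27 fell, and without NC13 2 rose.

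Targets of the glucocorticoid receptor fell more often than they rose, with 11 of 23 fallen and 1 risen (median -0.40). PDK4, described above, had the largest fall of the list. SGK1, a kinase that regulates ion transport, lay at 67.5 to 253 CPM (median 133) on day 0 and 53.9 to 137 CPM (median 81.3) in the late means (log2 fold change -0.63 ± 0.14, FDR 0.000750), and the kinase MAP3K8 fell (-0.43 ± 0.09, FDR 0.000782). The ranges of both overlapped. PIK3IP1, a restraint on PI3 kinase, was the gene that rose (0.46 ± 0.07, FDR 1.44e-05), without overlap. Clock genes had 4 of 21 higher and 5 lower, both near the 18.5% of all genes that rose and the 19.8% that fell. DBP, an output gene of the clock, rose (0.65 ± 0.10, FDR 2.15e-05) with ranges apart, and TEF, a relative of it, rose too (0.27 ± 0.07, FDR 0.00193), while the repressor CRY1 fell (-0.44 ± 0.12, FDR 0.00378), as did the activator ARNTL (-0.25 ± 0.07, FDR 0.00690). The hour of sampling on each day is not given in the sources used here.

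Several red cell genes were higher, beside the hemoglobin share of counts given above. Of 9 globin genes, with the hemoglobin-stabilizing gene AHSP among them, 6 rose and 0 fell (median 1.66). On day 14 7 of them rose (median 2.19) and on day 21 6 (median 2.52), while on day 56 none passed (0, median 0.37). Tested directly, day 56 against day 14 (median -1.91) and against day 21 (median -2.09) gave 0 of the 9 genes. HBA1, an alpha globin, had day 0 values of 429 to 5803 CPM (median 2613), and medians of 18555, 26892 and 4067 CPM on days 14, 21 and 56. Its fold change was 2.94 ± 0.83, 3.19 ± 0.84 and 0.61 ± 0.85 on these days, and 2.25 ± 0.75, FDR 0.0189 in the late mean. Steers were far apart, and the late call of HBA1 was lost without NC1 (2.22), NC12 (1.67) or NC13 (1.94). HBA1 and HBA code for nearly the same protein, so their counts may be split. HBA did not pass (1.61 ± 0.67), but passed without NC7 (2.03) or NC15 (2.26), whereas HBB (1.697 ± 0.68, FDR 0.0488), AHSP (1.08 ± 0.43, FDR 0.0478) and HBE1 (1.84 ± 0.59, FDR 0.0146) did. HBB lost its call in 10 of 17 alternatives, among them those without NC1 (1.65), NC5 (1.63), NC12 (1.16) or NC13 (1.42). AHSP lost its call in 9 of 18, among them those without NC1 (1.12), NC5 (0.90), NC12 (0.85) or NC13 (0.85). HBM (1.66 ± 0.59, FDR 0.0263) lost its call without NC1 (1.61), NC12 (1.18) or NC13 (1.50). Without NC13 1 of the 9 rose, and without the 3 hemoglobin-rich libraries of NC5 4 rose.

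Other genes of the red cell line were less even. Of 28 genes of membrane and regulation 12 rose and 0 fell (median 0.49), and 9 rose without NC1, NC12 or NC13. The summed level of the 28 genes was not higher, with medians of 1769 CPM (1478 to 2200) on day 0 and 1733 CPM (1486 to 2260) in the late means. GATA1, the master transcription factor of red cells and megakaryocytes, lay at 3.39 to 7.92 CPM (median 5.12) on day 0 and 6.76 to 29.9 CPM (median 12.4) in the late means and rose (1.28 ± 0.23, FDR 0.000134). GYPC, a glycophorin, and BPGM, the enzyme that makes 2,3-bisphosphoglycerate, had ranges that did not overlap and rose, with 0.40 ± 0.08, FDR 0.000353 for GYPC and 0.45 ± 0.12, FDR 0.00377 for BPGM. Of 14 heme genes 5 rose and 2 fell. The enzyme gene UROS rose (0.53 ± 0.09, FDR 7.04e-05), as did the mitochondrial carrier SLC25A39 (0.86 ± 0.23, FDR 0.00392), the enzyme CPOX fell (-0.37 ± 0.08, FDR 0.000814), as did the transporter ABCB10 (-0.34 ± 0.10, FDR 0.00566), and ALAS2, the first enzyme of red cell heme synthesis, did not pass (1.49 ± 0.69) but did without NC7 (1.92) or NC15 (2.26). Without NC12, 2 heme genes rose. The band 3 gene SLC4A1 did not pass (0.60 ± 0.57).

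Platelet genes moved up, with 12 of 22 risen and 0 fallen (median 0.47). MYL9, a myosin light chain, lay at 111 to 279 CPM (median 141) on day 0 and 201 to 526 CPM (median 361) in the late means and rose (1.03 ± 0.16, FDR 2.70e-05). SELP, the adhesion molecule P-selectin, rose (1.06 ± 0.21, FDR 0.000279), as did neurogranin (NRGN) (0.98 ± 0.15, FDR 1.53e-05) and platelet factor 4 (PF4) (0.79 ± 0.18, FDR 0.00138). PPBP (0.24 ± 0.30), ITGA2B (0.14 ± 0.07) and GP9 (0.42 ± 0.20) did not pass, and GP9 did without NC15 (0.59). Their late ranges all overlapped day 0, and without NC1 8 of the 22 rose.

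Eosinophil and basophil genes had 7 of 18 higher and 2 lower (median 0.59). The summed level of the 18 genes was not higher, with medians of 926 CPM (619 to 1374) on day 0 and 716 CPM (565 to 1205) in the late means. CCR3, the eotaxin receptor, lay at 22.9 to 55.96 CPM (median 36.9) on day 0 and 39.9 to 113 CPM (median 78.8) in the late means (log2 fold change 0.96 ± 0.15, FDR 2.54e-05). PTGDR2, the prostaglandin D2 receptor, lay at 8.28 to 20.6 CPM (median 11.8) on day 0 and 10.5 to 30.2 CPM (median 23.4) in the late means (log2 fold change 0.71 ± 0.10, FDR 7.24e-06). Both ranges overlapped day 0 although both genes passed the paired test. HRH4, a histamine receptor, rose (0.83 ± 0.13, FDR 3.44e-05), as did IL5RA, the receptor of the eosinophil growth factor interleukin 5, (1.02 ± 0.21, FDR 0.000411). On day 56 the largest rises of all genes under the rule were ALOX15 (2.66 ± 0.34), ALOX5 (2.22 ± 0.33), which starts leukotriene synthesis, and the adenosine receptor ADORA3 (2.001 ± 0.49), which overlaps TMIGD3. The basophil and mast cell markers CPA3 (0.45 ± 0.22), GATA2 (0.28 ± 0.14) and MS4A2 (-0.02 ± 0.19) did not pass, and GATA2 did without NC12 (0.38). Leaving out single steers left 7 or 8 genes higher, and without NC13 none was lower (0).

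Of 29 T cell genes 15 rose and 0 fell (median 0.28, 13 to 15 when single steers were left out). CD3E, a chain of the receptor complex, lay at 491 to 809 CPM (median 649) on day 0 and 689 to 1159 CPM (median 956) in the late means (log2 fold change 0.58 ± 0.07, FDR 3.07e-06). CD247, the zeta chain, rose (0.49 ± 0.06, FDR 4.08e-06), as did CD3D (0.44 ± 0.06, FDR 1.53e-05), the phosphatase-like UBASH3A (0.47 ± 0.07, FDR 1.06e-05) and the adhesion receptor CD2 (0.33 ± 0.05, FDR 2.74e-05). The ranges of these genes overlapped, and CD3G did not pass (0.39 ± 0.24). Of 8 genes listed for gamma delta T cells 4 rose, among them SOX13 (0.71 ± 0.13, FDR 0.000184), a transcription factor of these cells, and the kinase BLK (0.86 ± 0.12, FDR 9.30e-06). Of the defining markers of these cells only SOX13 was tested, so the list says little about their number. The receptor genes WC1.3 (0.62 ± 0.12, FDR 0.000208) and WC1-12 (0.42 ± 0.12, FDR 0.00758) belong to a family of near-identical copies, so their counts are uncertain. Of 29 genes of receptor signaling 2 rose and 12 fell (median -0.18). PAG1 (-0.59 ± 0.09, FDR 2.46e-05), a membrane adaptor, SOS1 (-0.48 ± 0.08, FDR 3.44e-05), which activates RAS, LCP2 (-0.35 ± 0.06, FDR 5.77e-05), the adaptor SLP-76, and TAB2 (-0.48 ± 0.09, FDR 0.000169), which binds the kinase TAK1, all had ranges that did not overlap. These signaling genes are also expressed in other leukocytes.

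B cell genes had 9 of 25 higher and 3 lower (median 0.13), and without NC13 3 were higher. CD79A, a chain of the B cell receptor, lay at 463 to 687 CPM (median 513) on day 0 and 594 to 967 CPM (median 696) in the late means (log2 fold change 0.43 ± 0.10, FDR 0.000987). TNFRSF13C, the receptor of the survival factor BAFF, rose (0.60 ± 0.13, FDR 0.000911), as did CD79B (0.47 ± 0.13, FDR 0.00557), while MS4A1, which codes for CD20, did not pass (0.13 ± 0.12) except without NC12 (0.26). PAX5, the factor that fixes B cell identity, fell (-0.56 ± 0.15, FDR 0.00462), as did CD24 (-1.08 ± 0.29, FDR 0.00486), the latter not called without NC13 (-0.52). The list thus had members that moved apart. Plasma cell genes had 2 of 12 higher and 2 lower, both near the share of all genes. PRDM1 stood at -0.84 ± 0.16, FDR 0.000227 and SSR4, a part of the secretory pathway, at 0.43 ± 0.08, FDR 0.000277. The immunoglobulin partners JCHAIN (-0.11 ± 0.33) and MZB1 (-0.11 ± 0.21) did not pass, nor did TNFRSF17 (-0.51 ± 0.25). NC13 held the highest day 0 value in 75% of the plasma cell genes. CD38 (-0.19 ± 0.06) lost its call without NC1 (-0.14), NC5 (-0.16), NC13 (-0.19) or NC15 (-0.14), and DERL3 (0.33 ± 0.12) without NC1 (0.30), NC7 (0.29), NC12 (0.33) or NC15 (0.33).

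Genes of NK and cytotoxic cells had 4 of 25 higher and 5 lower (median 0.01). NCR3, an activating receptor, lay at 26.9 to 55.4 CPM (median 44.3) on day 0 and 56.4 to 91.9 CPM (median 69.3) in the late means, with ranges apart (log2 fold change 0.79 ± 0.11, FDR 9.04e-06). CST7, an inhibitor of granule proteases, rose (0.60 ± 0.11, FDR 0.000201), as did the granzyme gene GZMB (0.52 ± 0.21, FDR 0.0488). The call of GZMB was lost without NC1 (0.50), NC5 (0.46), NC12 (0.60) or NC13 (0.33). KLRD1, a lectin-like receptor, fell (-0.81 ± 0.15, FDR 0.000144), as did the granzyme gene GZMA (-0.76 ± 0.17, FDR 0.00110) and NCR1 (-0.34 ± 0.09, FDR 0.00375). The perforin gene PRF1 (-0.10 ± 0.14) and NKG7 (0.09 ± 0.12) did not pass. Both shares are near the 18.5% of all genes that rose and the 19.8% that fell. Among the members named here, only NCR3 had ranges apart.

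The genes of antigen presentation fall into 2 classes. Of 16 class II genes 7 rose and 1 fell (median 0.34). BOLA-DRA, the DR alpha chain, lay at 1494 to 2261 CPM (median 2013) on day 0 and 2318 to 2894 CPM (median 2521) in the late means (log2 fold change 0.41 ± 0.09, FDR 0.00101). RFXANK, a subunit of the factor that drives class II promoters, rose (0.39 ± 0.08, FDR 0.000386), and neither gene overlapped between day 0 and late. BOLA-DRB3 (0.42 ± 0.09, FDR 0.00118) and BOLA-DOA (0.38 ± 0.09, FDR 0.00185) rose with overlap, and class II genes are polymorphic, so that counts may depend on the alleles of a steer. Without the 3 hemoglobin-rich libraries of NC5, 5 rose and 0 fell. Of 19 class I genes 2 rose and 3 fell (median 0.08), neither above the share of all genes. TAPBPL, which edits peptides, rose (0.31 ± 0.05, FDR 3.20e-05), while the trimming enzymes ERAP2 (-0.56 ± 0.10, FDR 7.22e-05) and ERAP1 (-0.30 ± 0.06, FDR 0.000763) and the chaperone CANX (-0.28 ± 0.08, FDR 0.00633) fell. CANX was not called without NC13 (-0.16).

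Many genes of protein synthesis and mitochondria rose by small amounts. Of 78 ribosomal protein genes 40 rose and 0 fell (median 0.29), and 29 rose without NC13. The ranges of 22 of the 78 did not overlap, against 6.83% of all genes tested. RPL10, of the large subunit, lay at 1215 to 1434 CPM (median 1391) on day 0 and 1619 to 2135 CPM (median 1888) in the late means (log2 fold change 0.46 ± 0.07, FDR 4.61e-05). RPL18, of the same subunit, rose (0.49 ± 0.09, FDR 9.41e-05), and neither gene overlapped between day 0 and late. Of 76 nuclear genes of oxidative phosphorylation 27 rose and 3 fell (median 0.13), and 14 rose without NC12. NDUFB10 (0.45 ± 0.07, FDR 4.82e-05), NDUFA7 (0.39 ± 0.08, FDR 0.000336) and NDUFS3 (0.39 ± 0.08, FDR 0.000585), all of complex I, and COX4I1 (0.39 ± 0.08, FDR 0.000310) of complex IV rose. Of 12 genes on mitochondrial DNA 9 rose (median 0.52), 6 without NC7 or NC15. COX1 lay at 7484 to 12539 CPM (median 10838) on day 0 and 14907 to 15943 CPM (median 15186) in the late means (log2 fold change 0.60 ± 0.13, FDR 0.000807), and ND4L (0.63 ± 0.14, FDR 0.000826), ND1 (0.56 ± 0.16, FDR 0.00650) and ATP6 (0.54 ± 0.16, FDR 0.00746) rose as well. COX1 and ND4L had ranges apart. The mitochondrial share of all counts had a median of 2.42% on day 0 and 3.47% in the late means. Of 32 proteasome genes 11 rose and 0 fell (median 0.13), with PSMD13 (0.32 ± 0.06, FDR 8.19e-05), PSMC5 (0.28 ± 0.07, FDR 0.00162), PSMC4 (0.25 ± 0.06, FDR 0.00229) and PSMC1 (0.28 ± 0.07, FDR 0.00249) of smallest p.

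Genes of lipid synthesis were mostly higher, with 18 of 30 risen and 1 fallen (median 0.34, 16 to 19 when single steers were left out). MVK, the mevalonate kinase, lay at 26.9 to 43.03 CPM (median 33.3) on day 0 and 40.2 to 66.6 CPM (median 51.8) in the late means (log2 fold change 0.60 ± 0.07, FDR 2.39e-06). SQLE, which makes squalene epoxide, lay at 41.7 to 60.997 CPM (median 57.96) on day 0 and 60.2 to 86.1 CPM (median 75.8) in the late means (log2 fold change 0.45 ± 0.07, FDR 1.53e-05). NSDHL (0.32 ± 0.05, FDR 2.68e-05), an enzyme of the later steps to cholesterol, rose as well. Day 0 and late ranges overlapped in these 3 genes.

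Some proliferation and chaperone genes were lower, and both lists leaned on NC13. Of 32 cell cycle genes 12 fell and 1 rose in the late mean (median -0.21), and 20 fell on day 56. MKI67, the Ki-67 antigen of dividing cells, lay at 117 to 320.02 CPM (median 203) on day 0 and 78.4 to 181 CPM (median 122.6) in the late means (log2 fold change -0.73 ± 0.13, FDR 0.000139). CENPF, a kinetochore protein, fell (-0.73 ± 0.12, FDR 4.26e-05), as did the mitotic kinase PLK1 (-0.32 ± 0.05, FDR 5.44e-05), and the tubulin regulator STMN1 was the gene that rose (0.45 ± 0.08, FDR 9.10e-05). Without NC13, which held the highest day 0 value in 62.5% of these genes, 6 fell. Of 27 heat shock and chaperone genes 11 fell and 2 rose (median -0.19). The median of their summed level was not lower, at 3817 CPM (3570 to 5423) on day 0 and 3987 CPM (3709 to 4042) in the late means. HSPH1 (-0.49 ± 0.11, FDR 0.000834) and HSPA4 (-0.25 ± 0.06, FDR 0.00198), exchange factors for HSP70, the endoplasmic reticulum chaperone DNAJC3 (-0.40 ± 0.09, FDR 0.00108) and CHORDC1 (-0.45 ± 0.10, FDR 0.00114), a partner of HSP90, had the smallest p. NC13 held the highest day 0 value in 59.3% of this list, and without it 5 genes fell. Without the 3 hemoglobin-rich libraries of NC5, 8 fell.

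Immediate early genes showed no common direction, with 3 of 22 higher and 4 lower, neither above the share of all genes. FOSL2 had ranges apart, at 116 to 225 CPM (median 138) on day 0 and 55.6 to 97.2 CPM (median 76.8) in the late means (log2 fold change -0.98 ± 0.14, FDR 1.25e-05), and KLF6 fell (-0.54 ± 0.15, FDR 0.00487), whereas JUND rose (0.43 ± 0.08, FDR 0.000104), as did IER2 (0.39 ± 0.07, FDR 0.000179). All 4 are transcription regulators. Genes of homing had 4 of 24 higher and 3 lower, again neither above the share of all genes. CCR7, which guides lymphocytes to lymph nodes, lay at 142 to 237 CPM (median 161) on day 0 and 196 to 348 CPM (median 268) in the late means (log2 fold change 0.54 ± 0.07, FDR 7.24e-06). ITGA4, the integrin alpha 4 chain, lay at 253 to 393 CPM (median 287) on day 0 and 178 to 246 CPM (median 204) in the late means (log2 fold change -0.55 ± 0.11, FDR 0.000362), with ranges apart. The chemokine receptor XCR1, of cross-presenting dendritic cells, fell (-1.56 ± 0.41, FDR 0.00381).

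Of 34 genes for very large regulatory proteins 24 fell and 0 rose (median -0.46), and 20 to 23 fell when single steers were left out. The list was built around TAOK1, LYST and ZKSCAN8, which earlier results of these libraries had shown to fall. KMT2C, a histone methyltransferase, lay at 87.04 to 140.3 CPM (median 119.5) on day 0 and 46.7 to 70.04 CPM (median 61.6) in the late means (log2 fold change -0.93 ± 0.12, FDR 3.81e-06). HERC1, a giant ubiquitin ligase, lay at 251 to 317 CPM (median 289) on day 0 and 157 to 188 CPM (median 172) in the late means (log2 fold change -0.75 ± 0.10, FDR 4.39e-06). MDN1 (-0.50 ± 0.08, FDR 2.74e-05), a chaperone of ribosome assembly, and USP34 (-0.41 ± 0.07, FDR 4.26e-05), a deubiquitinase, fell by less, and in all 4 genes every late mean was below every day 0 value.

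Some markers of skin and muscle, tissues that blood should lack, were detected. Of the skin and hair genes 5 were tested, with 1 risen and 1 fallen in the late mean, and KRT5 and KRT14 were below the filter. On day 14, however, 4 of the 5 rose and 1 fell (median 2.29). The high values came from single libraries. KRT10 reached 25.83 CPM in NC7 on day 14 against at most 0.685 CPM in any steer on day 0, and KRT17 reached 11.33 CPM in NC12. KRT17 stood at 0 to 0.270 CPM (median 0) on day 0 and 0.0589 to 3.92 CPM (median 0.221) in the late means, and its call (log2 fold change 2.92 ± 1.03, FDR 0.0261) was lost without NC1 (2.58), NC12 (3.12) or NC13 (2.95). TRPS1, a GATA factor that is also active in blood cells, fell (-0.51 ± 0.09, FDR 5.64e-05). KRT10 (1.03 ± 0.54) and SFN (0.73 ± 0.43) did not pass. The skeletal muscle genes ACTA1 (9151 counts in all, 22 libraries at 0) and CKM (2776 counts, 28 libraries at 0) were below the filter. Of 3 muscle genes tested TNNT3 rose (0.99 ± 0.37, FDR 0.0341), a call lost without NC5 (1.097), NC7 (0.88), NC12 (0.94) or NC13 (0.77), while DES (-0.52 ± 1.24) and TTN (-0.06 ± 0.32) did not pass. Together these 3 skeletal muscle genes reached 80.33 CPM in NC15 on day 7 and at most 18.21 CPM in the other libraries. What part such material had in the other results was not tested.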

How the data were processed

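RNA from whole blood in PAXgene tubes was sequenced as stranded mRNA libraries with paired reads. Per the labels, the authors' tools were FastQC 0.11.9, Trimmomatic 0.39, HISAT2 2.1.1, StringTie 2.2.0 and edgeR 3.36.0, with ARS-UCD1.3 as the genome; the paper gives other versions of HISAT2 and edgeR. The counts deposited by the authors are estimates in whole numbers that a script of StringTie makes from the coverage of transcripts and sums per gene, so they are not normalized and overlapping or near-identical genes can share reads. The table has 33282 genes, of which 7329 have no count in the NC libraries. Totals of 32.3 to 63.01 M counts (mega) limit precision mainly for genes with few counts. In the paired fit, p-values measure changes between days against their spread among these 6 steers of 1 pen, pooled over all 6 days.

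Libraries were assigned to group, day and steer by their labels, and 36 of 252 were used. Genes with more than 0.2 CPM in at least 12 libraries were tested (16833). edgeR 4.0.16 in R 4.3.3 (TMM, quasi-likelihood test) fitted day with the steer as a block, because the labels give the same animal on all 6 days. As a check of this pairing, deviations from the day means correlated at a median of 0.416 between libraries of a steer (lowest steer mean 0.345) and -0.0842 between steers on different days. Alternatives used DESeq2 1.42.0, limma 3.58.1, other scalings and filters, no block, and left-out steers. Single values were compared by exact sign-flip tests.

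The NC steers, the contrasts and the gene lists were chosen with earlier results of these data known. Genes named are the 10 largest rises and falls in the late mean (FDR 0.05, mean of at least 5 CPM, same direction in 6 of 6 steers, a gene symbol), the 5 of smallest p in each direction, the 3 largest each way on days 14, 21 and 56, the 4 of smallest p per list and the defining cell markers. No gene met the conditions for day 56 against day 14. Some genes that meet this rule are not reported here.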

Additional observations from a re-analysis of the deposited data

Results flagged for a closer look

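In groups of 6, a sample was set apart when its gap to the nearest other value, divided by the whole range, was above 0.625, a limit that chance passes in about 1 of 20 groups. Of 54 sets of 6 values looked at, 11 passed it, and of the 36 named genes among them 5 did. In the change from day 0 to the late mean on the log2 CPM scale, NC13 stood apart with 6.382 for ADORA3 (its day 0 count was 0), -3.838 for MEGF9 and -5.026 for PTX3. NC12 stood apart with 2.987 for ATP5IF1 and NC7 with 3.74 for IGFLR1. All of these lay on the same side of 0 as the other 5 steers. NC5 stood apart in the hemoglobin share of counts, with 21.52% on day 7, 20.4% on day 14 and 20.39% on day 21, and in the TMM factor, with 0.6946 on day 7 and 0.7789 on day 14. NC15 had the highest total on day 21, at 63.01 M counts. KCTD15 was the gene that differed between 2 late days, with a log2 difference of 1.126 for day 56 minus day 21 in edgeR's quasi-likelihood test. No cause of these values was tested.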

How the results depend on the processing

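The counts of genes in the late mean and on day 14 stayed within 1.5 times the reported ones under every alternative except the fit without the steer block. Without the replicate block the late mean gave 3518 genes, day 14 1958, day 21 1133, day 56 2004, day 3 1, day 7 1 and day 56 against day 21 0, and 45 of the 162 named genes past the FDR lost their call. With only the days compared in the fit, day 21 gave 832 genes, day 56 3007, and days 3 and 7 both 0. Without a filter day 3 gave 2 and day 7 305, and at an FDR of 0.1 day 3 gave 11, day 7 1057 and day 56 against day 21 3. DESeq2's Wald test gave 46 on day 3, 866 on day 7, and between late days 3 (day 21 against 14), 29 (day 56 against 14) and 39 (day 56 against 21). The likelihood ratio test gave 31, 16 and 12, and limma voom 14, 2 and 4, for day 3, day 56 against 14 and day 56 against 21. Leaving out the 3 hemoglobin-rich libraries of NC5, chosen after seeing the data, gave 8 on day 3, 119 on day 7 and 0 for day 56 against day 21. Leaving out 1 steer at a time, with the same genes tested, gave 4843 to 5961 genes in the late mean, 3679 to 4820 on day 14, 2435 to 3573 on day 21, 2591 to 5626 on day 56, 0 to 6 on day 3, 45 to 784 on day 7, 0 to 1 for day 56 against day 21, and 0 for day 21 or 56 against day 14. Of the 162 named genes past the FDR, 109 kept direction and call in all 18 alternatives in which they could be fitted. Named genes that turned direction had not passed the test. Over the fits that left out 1 steer, their log2 fold changes ran from -0.18 (without NC13) to 0.037 (NC15) for TTN, -1.56 (NC5) to 0.23 (NC15) for DES, -0.78 (NC1) to 0.057 (NC13) for CD68, -0.40 (NC1) to 0.16 (NC13) for JCHAIN, -0.27 (NC1) to 0.32 (NC13) for MZB1, -0.20 (NC15) to 0.025 (NC12) for PRF1 and -0.17 (NC13) to 0.12 (NC12) for MS4A2. TTN was also above 0 without NC1 (0.031), JCHAIN without NC5 (0.0085), and MS4A2 without NC1 (0.0095) or NC5 (0.082), in limma voom (0.026), with only the days compared (0.0075) and without the 3 libraries of NC5 (0.053). The cause was not tested. Genes with few counts, and the globins with their spread between steers, limit what 6 steers can show.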
